A study of Homo sapiens with 21 samples.

Results

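The 10 genes described here code for ligands, receptors, cofactors and a target of the Notch pathway: the ligands JAG1, JAG2 and DNER, the receptors NOTCH1, NOTCH2 and NOTCH3, the coactivators MAML2 and MAML3, the DNA-binding factor RBPJ and the target HES1. They were chosen by name, as every probe set that the array annotation of the HG-U133 Plus 2.0 platform gives to 1 of these symbols alone, which gave 28 of 54675 probe sets and 10 of 19775 genes. The arrays measured HEY cells, a human ovarian carcinoma line grown in culture, with 3 arrays in each of 7 groups. Cells given mir-429 with a lipid reagent, and cells given a synthetic negative control miRNA in the same way, were taken at 24, 48 and 144 h, and untransfected cells of the same line were taken at 0 h. The array titles name the control arm only as a synthetic miRNA, and it was taken here to be the negative control of the treatment protocol. All groups are 1 cell line, and no untransfected arrays of the later times were analysed here, so time in culture and transfection cannot be told apart in a comparison with 0 h. The labels call the arrays of a group biological replicates but do not say whether these were separate cultures, and p-values therefore rest on array-to-array spread that may be technical.

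Notch signalling passes between touching cells. A ligand of the Jagged or Delta type on one cell pulls on a Notch receptor on its neighbour, proteases then release the receptor's intracellular domain, and in the nucleus that domain joins RBPJ and a Mastermind-like coactivator (MAML) on target genes such as HES1, a transcriptional repressor. DNER, a transmembrane protein best known from neurons and from Purkinje cells of the mouse, has been described as a non-canonical Notch ligand, and JAG1, MAML2 and MAML3 have been described as targets of the miR-200 family, to which miR-429 belongs.

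A miRNA recognises its targets mainly through its seed, and the 5 members of the miR-200 family fall into 2 groups by it. The mature sequences below come from RefSeq (GRCh38.p14) and are shown 5′ to 3′ because the seed is what the transfected miRNA shares with its relatives. Capitals mark the seed, bases 2 to 8. The first 3 carry the seed of miR-429 and the last 2 the other seed.
hsa-miR-429 (chr1:1169055-1169076, plus strand): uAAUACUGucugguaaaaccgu
hsa-miR-200b-3p (chr1:1167160-1167181, plus strand): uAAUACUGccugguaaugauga
hsa-miR-200c-3p (chr12:6963742-6963764, plus strand): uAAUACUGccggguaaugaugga
hsa-miR-200a-3p (chr1:1167916-1167937, plus strand): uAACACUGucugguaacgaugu
hsa-miR-141-3p (chr12:6964155-6964176, plus strand): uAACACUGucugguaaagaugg
The labels name the transfected molecule only as mir-429, and whether it had exactly this sequence is not given in the sources used here. Target sites in transcripts were not analysed here.

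Values are log2 expression values made by RMA, a method that corrects the background, equalises the arrays and summarises the probes of a probe set. Array medians lay between 3.95 and 4.29, so a value near 4 is near the middle of all probe sets. The median of 3.95 was that of mir-429 replicate 1 at 144 h, and the next lowest was 4.14. Each gene is described by its probe set with the highest mean, changes are log2 differences ± SE with n = 3 per group from a limma fit of all 21 arrays, and a change was called where its p, adjusted by Benjamini-Hochberg over 12879 tested genes, was under 0.05. All 10 genes passed the filter on dim genes, under which at least 3 arrays had to lie above their own median. The 3 prime ends of the GAPDH and ACTB control probe sets exceeded the 5 prime ends by 8.55 in mir-429 cells and 7.83 in control cells at 48 h, against 2.87 to 4.21 in the other groups. The arms differed in this sign at 24 h, at 2.87 in mir-429 cells (2.54 to 3.25) and 4.21 in control cells (4.0 to 4.43), with no overlap, and its part in the 24 h changes below was not tested beyond the fit with it as a covariate, which kept the 24 h calls of DNER (-1.40 ± 0.23, adjusted p = 0.00149) and HES1 (0.94 ± 0.18, adjusted p = 0.00504) and not those of JAG1 and NOTCH2. Of 10 markers of an ovarian carcinoma line, 8 lay above the array median in every group, with MUC16 and MSLN not, while 0 of 6 leukocyte markers with a probe set passed the filter. Of 9 endothelial markers, 3 (CDH5, KDR and ROBO4) lay above the median in every group, as did PDGFRB and COL1A1 of 6 fibroblast markers, while PECAM1, VWF, DCN and LUM did not. By the filter, which is less strict, 9 of 10 ovarian carcinoma, 6 of 9 endothelial and 2 of 6 fibroblast markers passed. ZEB1, a described miR-200 target, fell by 1.29 ± 0.15 at 24 h and by 1.72 ± 0.15 at 48 h in mir-429 cells relative to control cells, and differed by -0.14 ± 0.15 at 144 h (adjusted p = 0.655). ZEB2, another described target, differed by -0.43 ± 0.18 at 24 h (adjusted p = 0.0893), fell by 1.12 ± 0.18 at 48 h (adjusted p = 2.15e-04) and differed by -0.33 ± 0.18 at 144 h (adjusted p = 0.329). In a bulk sample, fewer cells with a transcript and less of it per cell cannot be told apart.

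Set against control cells at the same time, mir-429 cells had lower DNER at every time, higher JAG1 at 24 h, and HES1 that was higher at 24 and 48 h and lower at 144 h. At 24 h, 3 members rose (JAG1, NOTCH2 and HES1) and 1 fell (DNER), where 26.6% of all tested genes were called. At 48 h HES1 rose and DNER, NOTCH1 and MAML2 fell, where 20.6% of all genes were called. At 144 h DNER and HES1 fell, where 5.85% of all genes were called. Averaged over the 3 times, JAG1 and HES1 rose and DNER fell, 3 of 10, which is close to the 28.0% of all genes called. The median change of the 10 members was -0.04 at 24 h, -0.17 at 48 h and -0.10 at 144 h, beside medians over all tested genes of -0.02, -0.01 and -0.04. JAG2, NOTCH3, MAML3 and RBPJ, 4 of the 10, were called at none of the 3 times. These comparisons use separate arrays at each time.

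**Figure D1:**
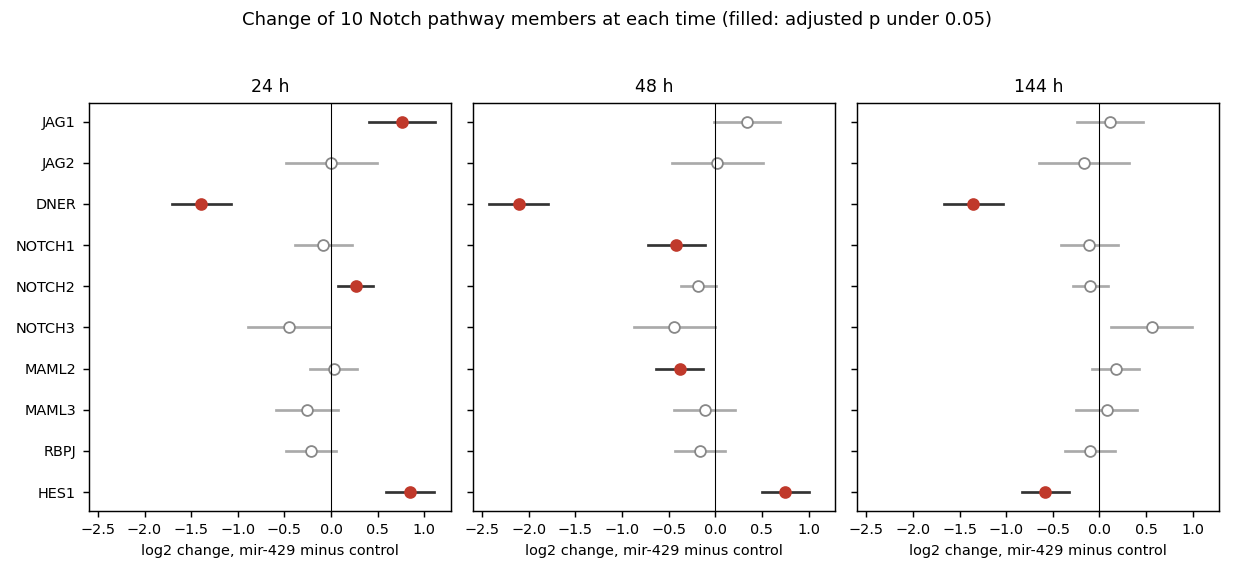
Log2 change in mir-429 cells relative to control cells (horizontal axis) for each of the 10 genes at 24, 48 and 144 h; points are limma estimates from 3 arrays a group, lines are 95% intervals, and filled points have an adjusted p under 0.05. DNER lies at -1.39, -2.11 and -1.35, JAG1 at 0.76 at 24 h, and HES1 at 0.85, 0.75 and -0.58 in time order.

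DNER was lower in mir-429 cells than in control cells at each time. At 24 h its probe set 226281_at read 7.75, 7.34 and 7.35 in mir-429 cells, against 8.91, 8.63 and 9.09 in control cells. At 48 h it read 7.02, 6.62 and 6.74 in mir-429 cells, against 8.79, 9.24 and 8.68 in control cells. At 144 h it read 6.41, 6.55 and 6.50 in mir-429 cells, against 7.77, 7.88 and 7.86 in control cells. Every mir-429 array lay below every control array of its time, and the groups did not overlap. The change was -1.39 ± 0.15 at 24 h (adjusted p = 4.08e-06), a level 2.63-fold lower. At 48 h the change was -2.11 ± 0.15 (adjusted p = 1.80e-08), 4.31-fold lower, and at 144 h it was -1.35 ± 0.15 (adjusted p = 4.33e-05), 2.55-fold lower. DNER has 1 probe set on the array, so no other probe set of the gene could be set beside it. The effect at 48 h minus that at 24 h was -0.71 ± 0.21 and did not pass (adjusted p = 0.0598), although it did without control replicate 1 or 3 or mir-429 replicate 1 at 48 h (adjusted p = 0.0469, 0.0327 and 0.0421).

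In control cells DNER was higher than in untransfected cells, which read 7.74, 7.78 and 7.73, by 1.12 ± 0.15 at 24 h (adjusted p = 2.63e-05) and by 1.15 ± 0.15 at 48 h (adjusted p = 6.07e-06), and differed by 0.08 ± 0.15 at 144 h (adjusted p = 0.848). In mir-429 cells it differed from untransfected cells by -0.27 ± 0.15 at 24 h (adjusted p = 0.224), with overlapping groups, and changed by -0.96 ± 0.15 at 48 h (adjusted p = 3.53e-05). At 144 h the change in mir-429 cells against untransfected cells was -1.27 ± 0.15 (adjusted p = 5.45e-05). The called difference from 0 h was thus that of the control arm at 24 h, of both arms, in opposite directions, at 48 h, and of the mir-429 arm at 144 h. The comparisons with control and with 0 h share arrays. Over the 7 groups the order of the DNER means, high to low, was control at 48 h, control at 24 h, control at 144 h, untransfected, and mir-429 at 24, 48 and 144 h. The arrays of control cells at 48 and 24 h overlapped, as did those of control cells at 144 h with untransfected cells and of untransfected cells with mir-429 cells at 24 h.

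**Figure D2:**
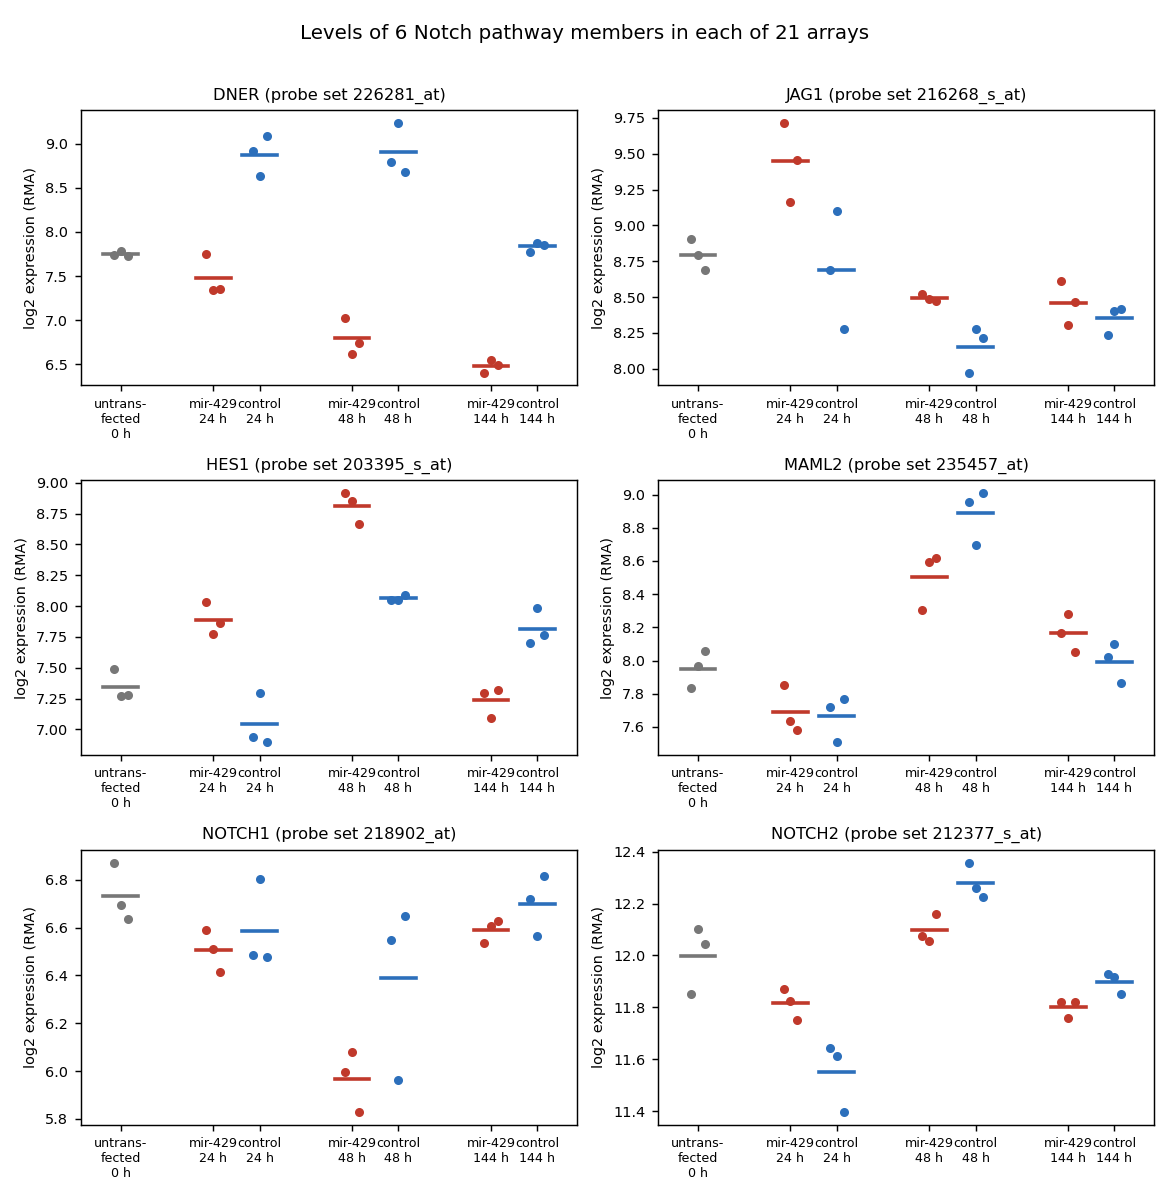
Log2 expression (vertical axis, RMA) of DNER, JAG1, HES1, MAML2, NOTCH1 and NOTCH2 in all 21 arrays, by group; points are single arrays, bars are means of 3 arrays, red is mir-429, blue is control and grey is untransfected. DNER in mir-429 cells lies between 6.41 and 7.75, and in control cells between 7.77 and 9.24; each vertical axis has its own range.

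JAG1, the Jagged ligand mutated in Alagille syndrome, was higher in mir-429 cells at 24 h. Its probe set 216268_s_at read 9.72, 9.17 and 9.46 in mir-429 cells at 24 h, against 8.69, 9.10 and 8.28 in control cells. The groups did not overlap, although the highest control array lay only just under the lowest mir-429 array, and the control arrays were spread widely. The change was 0.76 ± 0.17 (adjusted p = 0.00275), a level 1.69-fold higher. JAG1 in mir-429 cells at 24 h was also higher than in untransfected cells, which read 8.91, 8.79 and 8.69, by 0.65 ± 0.17 (adjusted p = 0.00834), while control cells differed from them by -0.11 ± 0.17 (adjusted p = 0.648). With 3 prime minus 5 prime control signal as a covariate the change between arms at 24 h was 0.69 ± 0.26 and was no longer called (adjusted p = 0.148).

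At 48 h JAG1 read 8.52, 8.49 and 8.47 in mir-429 cells, against 7.97, 8.28 and 8.21 in control cells, with no overlap. The change of 0.34 ± 0.17 had an adjusted p of 0.171 and a 95% interval of -0.01 to 0.69. At 144 h it read 8.61, 8.31 and 8.46 in mir-429 cells, against 8.24, 8.40 and 8.42 in control cells, and the groups overlapped (change 0.11 ± 0.17, adjusted p = 0.790). The 48 h effect minus the 24 h effect, -0.42 ± 0.24, did not pass (adjusted p = 0.288), so the effect was not shown to differ between those times. Against untransfected cells, JAG1 in control cells at 48 h changed by -0.64 ± 0.17 (adjusted p = 0.00346), or by -0.05 ± 0.12 with the mean of its probe sets (adjusted p = 0.757).

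JAG1 is represented by 6 probe sets, which fell into 3 kinds. In the fit with every probe set as its own row, where 20.4% of 25117 probe sets were called at 24 h, 3 JAG1 sets rose at 24 h: 209099_x_at by 0.76 ± 0.17 (adjusted p = 0.00381), 216268_s_at by 0.76 ± 0.17 (adjusted p = 0.00463) and 231183_s_at by 0.88 ± 0.20 (adjusted p = 0.00511). The set 231183_s_at read 8.10, 7.46 and 7.85 in mir-429 cells, against 7.02, 7.39 and 6.36 in control cells. Over the 7 group means the 3 sets ran together, with Pearson correlations of 0.93 to 0.96 between pairs, given as a description since they come from the same arrays. A second pair, 209097_s_at and 229924_s_at, lay between 4.27 and 5.02 in all arrays, close to the array medians, and changed by -0.07 ± 0.12 and -0.17 ± 0.17 at 24 h. The sixth set, 209098_s_at, stayed under the filter, with values between 1.95 and 4.09, and was not tested. The mean of the JAG1 probe sets, which includes the dim ones, changed by 0.35 ± 0.12 at 24 h (adjusted p = 0.0540). Whether the probes of 209099_x_at, a set whose name marks probes that may match other transcripts, read JAG1 alone was not tested.

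**Figure D3:**
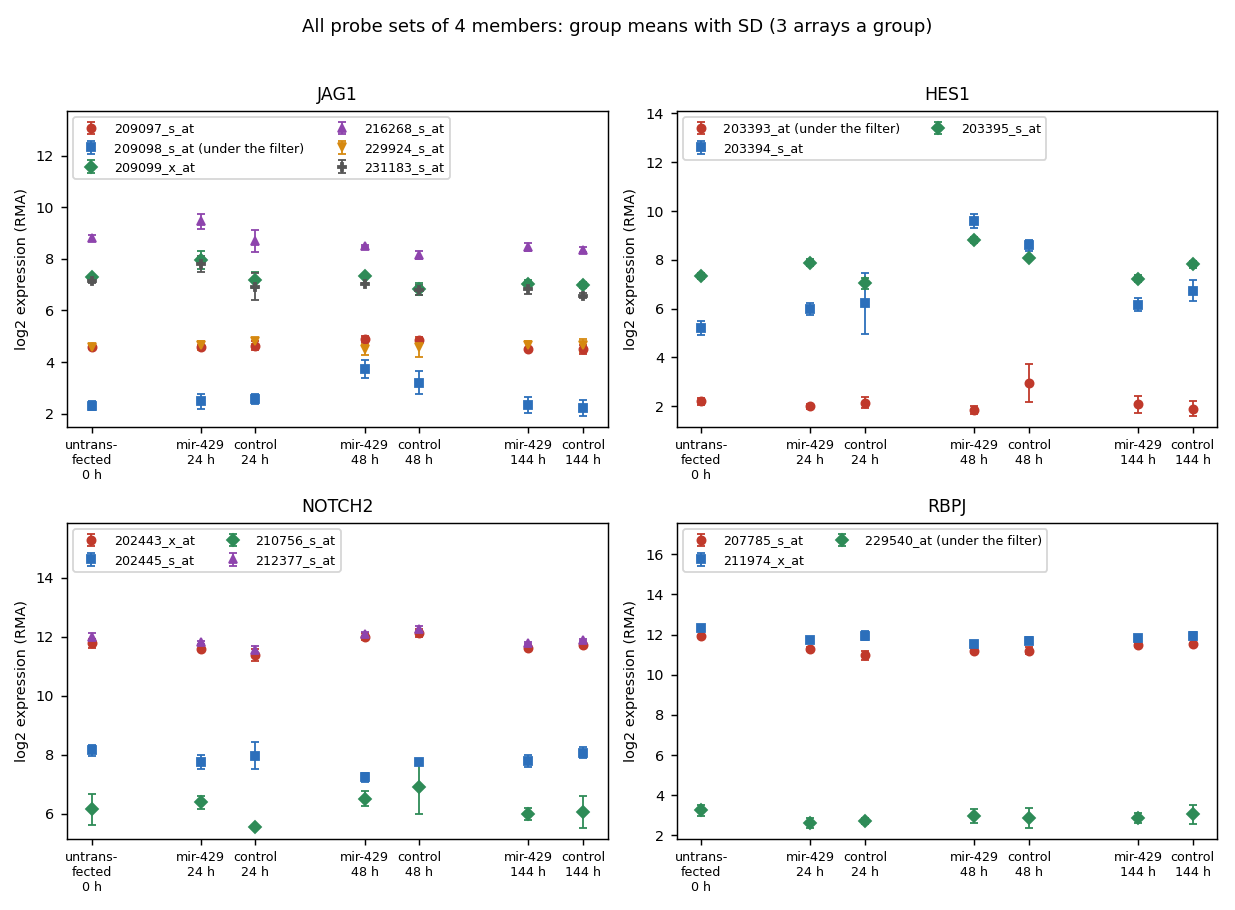
Group means of every probe set of JAG1, HES1, NOTCH2 and RBPJ (vertical axis, log2 expression by RMA), with SD over 3 arrays as error bars and groups along the horizontal axis. The 3 brighter JAG1 sets are highest in mir-429 cells at 24 h, and HES1 set 203394_s_at lies between 8.38 and 9.85 at 48 h in both arms, against 4.88 to 7.32 in all other arrays.

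JAG2, the other Jagged ligand measured, stayed near the array medians. Its probe set 32137_at ranged between 4.14 and 5.01 over the 21 arrays, and 209784_s_at between 3.88 and 4.68. The change at 24 h was 0.00 ± 0.23, with a 95% interval of -0.48 to 0.49, and those at 48 and 144 h were 0.02 ± 0.23 and -0.17 ± 0.23. Groups overlapped at all 3 times, and with intervals this wide a small change in either direction could have been missed.

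Of the receptors, NOTCH1 read 6.0, 6.08 and 5.83 in mir-429 cells at 48 h, against 6.55, 5.96 and 6.65 in control cells. The control array at 5.96 lay inside the range of the mir-429 arrays, so the groups overlapped. The change of -0.42 ± 0.15 passed narrowly (adjusted p = 0.0496) and was kept in 5 of 16 other settings. It no longer passed without control replicate 1 or 3 or without any 1 mir-429 array, with changes of -0.29 to -0.47 and adjusted p of 0.0589 to 0.203, and it changed by -0.08 ± 0.15 at 24 h and by -0.11 ± 0.15 at 144 h. Without control replicate 2, the low array, the 48 h change was -0.63 ± 0.12 (adjusted p = 0.00127). The change averaged over times was then -0.27 ± 0.06 (adjusted p = 0.00363), against -0.20 ± 0.08 (adjusted p = 0.0809) with it. NOTCH1 in mir-429 cells at 48 h also differed from untransfected cells, which read 6.87, 6.69 and 6.64, by -0.76 ± 0.15 (adjusted p = 2.39e-04). In control cells at 48 h NOTCH1 differed from them by -0.35 ± 0.15 and was not called (adjusted p = 0.0529). The second set, 223508_at, ranged between 4.15 and 5.50 and changed by 0.01 ± 0.19 at 48 h, where 16.7% of all probe sets were called. The share of probe sets called at 144 h was 4.66%, and of the 23 tested probe sets of the members 5 were called at 24 h, 3 at 48 h and 2 at 144 h.

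NOTCH2 lay high on the array scale, between 11.40 and 12.36 for 212377_s_at. At 24 h it read 11.87, 11.82 and 11.75 in mir-429 cells, against 11.64, 11.61 and 11.40 in control cells. At 48 h it read 12.08, 12.06 and 12.16 in mir-429 cells, against 12.36, 12.26 and 12.22 in control cells. The mir-429 arrays thus lay above the control arrays at 24 h and below them at 48 h, with no overlap either time. The change was 0.27 ± 0.09 at 24 h (adjusted p = 0.0337) and -0.18 ± 0.09 at 48 h (adjusted p = 0.162), and the change between these times, -0.45 ± 0.13, passed (adjusted p = 0.0454), 1 of 10 members where 4.89% of all genes did. The 24 h call was lost without control replicate 3 (0.19 ± 0.09, adjusted p = 0.178), without mir-429 replicate 1 (0.24 ± 0.10, adjusted p = 0.114) and without mir-429 replicate 2 (0.26 ± 0.10, adjusted p = 0.0803). In all it was lost in 10 of 17 other settings, among them quantile scaling (0.21 ± 0.09, adjusted p = 0.0977), cyclic loess (0.20 ± 0.09, adjusted p = 0.0949), no filter (adjusted p = 0.0813), only the compared groups (adjusted p = 0.142) and the covariate (0.19 ± 0.13, adjusted p = 0.499). The change between times was lost when any 1 of 10 of its 12 arrays was left out, with adjusted p of 0.0502 to 0.128.

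Other NOTCH2 probe sets did not all move alike. At 24 h 202443_x_at changed by 0.21 ± 0.11, 210756_s_at by 0.83 ± 0.35 and 202445_s_at by -0.21 ± 0.19, none of them called, and in that fit 212377_s_at itself had an adjusted p of 0.0522. Over the 7 group means, 202443_x_at followed 212377_s_at with a correlation of 0.99, while 202445_s_at had one of -0.37. The human genome holds partial NOTCH2 copies, the NOTCH2NL genes, and which of these sets also read them was not tested. NOTCH2 in control cells was lower than in untransfected cells at 24 h, by a change of -0.45 ± 0.09 (adjusted p = 7.65e-04), and higher at 48 h, by 0.28 ± 0.09 (adjusted p = 0.0123). The 48 h difference was not called without untransfected replicate 1 (0.21 ± 0.09, adjusted p = 0.0780). In mir-429 cells NOTCH2 differed from untransfected cells by -0.18 ± 0.09 at 24 h (adjusted p = 0.152) and by 0.10 ± 0.09 at 48 h (adjusted p = 0.364), neither called.

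NOTCH3 was near or under the array medians, with 7 of 21 arrays above them for 203237_s_at and 0 for 203238_s_at. At 144 h 203237_s_at read 4.71, 4.48 and 3.85 in mir-429 cells, against 3.82, 3.84 and 3.70 in control cells. At 48 h it read 3.93, 3.30 and 4.02 in mir-429 cells, against 4.42, 3.84 and 4.31 in control cells. None of the 3 changes was called (-0.45 ± 0.21 at 24 h, -0.44 ± 0.21 at 48 h and 0.56 ± 0.21 at 144 h), while their difference between 144 and 48 h was (1.00 ± 0.29, adjusted p = 0.0373). Those values lie mostly below the array medians, and with them raised to the median that difference came to 0.38. Without mir-429 replicate 3 at 144 h, the low array, the 144 h change was 0.81 ± 0.20 (adjusted p = 0.0229). Leaving out any other single array gave no call at 144 h. The highest value, 4.71, is that of mir-429 replicate 1 at 144 h, the array with the lowest median of all (3.95).

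Of the coactivators, MAML2 is a partner in the CRTC1 fusion of mucoepidermoid carcinoma, and both MAML2 and MAML3 bind the complex of RBPJ and the receptor's intracellular domain. At 48 h the MAML2 set 235457_at read 8.30, 8.59 and 8.62 in mir-429 cells, against 8.95, 8.70 and 9.01 in control cells. The groups did not overlap, and mir-429 cells were lower, with a change of -0.38 ± 0.12 (adjusted p = 0.0313). The call was lost without control replicate 1 (-0.35 ± 0.14, adjusted p = 0.0871), control replicate 3 (-0.32 ± 0.13, adjusted p = 0.104) or mir-429 replicate 1 (-0.28 ± 0.13, adjusted p = 0.147). It was lost in 8 of 16 other settings in all, among them the covariate (-0.31 ± 0.14, adjusted p = 0.142), only the compared groups (adjusted p = 0.184), array weights (adjusted p = 0.0948) and no filter (adjusted p = 0.0561). The dimmer set 235106_at changed by -0.54 ± 0.21 at 48 h without passing (adjusted p = 0.0853).

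Both arms had more MAML2 at 48 h than untransfected cells, which read 7.83, 7.96 and 8.06. The change was 0.55 ± 0.12 in mir-429 cells (adjusted p = 7.96e-04) and 0.94 ± 0.12 in control cells (adjusted p = 5.20e-06). With the mean of its probe sets the change in mir-429 cells was 0.17 ± 0.12 and was not called (adjusted p = 0.207). At 24 h the arms read 7.86, 7.64 and 7.58 with mir-429 and 7.72, 7.51 and 7.77 with control, overlapping, with a change of 0.03 ± 0.12 and a 95% interval of -0.23 to 0.28. At 144 h the change between arms was 0.17 ± 0.12 (adjusted p = 0.477), and the difference between the 144 h and 48 h effects was 0.56 ± 0.17 (adjusted p = 0.0480).

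MAML3 was lower at 24 h than at 0 h in both arms and was called between the arms at no time. Its set 242794_at read 5.48, 4.72 and 5.13 in mir-429 cells at 24 h, against 5.41, 5.42 and 5.28 in control cells and 6.45, 6.50 and 6.47 in untransfected cells. The arms overlapped, and both lay below all untransfected arrays. The change between arms was -0.25 ± 0.16 (adjusted p = 0.254, 95% interval -0.59 to 0.08), and it was -0.12 ± 0.16 at 48 h and 0.08 ± 0.16 at 144 h. Against untransfected cells the change at 24 h was -1.36 ± 0.16 in mir-429 cells (adjusted p = 5.95e-06) and -1.10 ± 0.16 in control cells (adjusted p = 4.88e-05), while at 144 h it was -0.05 ± 0.16 and -0.13 ± 0.16 in these arms, mir-429 first. Of the other MAML3 sets, 228508_at passed the filter in 4 arrays and changed by 0.25 ± 0.21 in control cells at 24 h, and 207946_at stayed under the filter with values between 2.14 and 3.31. The mean of the MAML3 sets in control cells at 24 h changed by -0.25 ± 0.13 against untransfected cells (adjusted p = 0.138), so that fall rests on 1 probe set.

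RBPJ, the factor through which Notch reaches DNA, lay between 11.42 and 12.40 for 211974_x_at. At 24 h it read 11.59, 11.75 and 11.85 in mir-429 cells, against 12.09, 11.68 and 12.05 in control cells and 12.30, 12.34 and 12.40 in untransfected cells. The arms overlapped, and untransfected cells were above both. The changes between arms were -0.21 ± 0.13, -0.16 ± 0.13 and -0.10 ± 0.13 at 24, 48 and 144 h, none called. Without control replicate 2, the low array, the 24 h change was -0.34 ± 0.12 (adjusted p = 0.0453), and leaving out any other single array gave no call. A second bright set, 207785_s_at, went the other way at 24 h, at 11.38, 11.15 and 11.30 in mir-429 cells against 11.19, 10.80 and 10.88 in control cells, a change of 0.32 ± 0.12 that did not pass (adjusted p = 0.0693).

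The third set, 229540_at, stayed under the filter, with values between 2.27 and 3.58. The 2 bright RBPJ sets were below untransfected cells in each arm at 24 and 48 h. For 211974_x_at the change in mir-429 cells was -0.62 ± 0.13 at 24 h, -0.82 ± 0.13 at 48 h and -0.50 ± 0.13 at 144 h (adjusted p = 0.00167, 3.14e-05 and 0.0120). In control cells it was -0.41 ± 0.13 at 24 h, -0.65 ± 0.13 at 48 h and -0.40 ± 0.13 at 144 h (adjusted p = 0.0175, 3.08e-04 and 0.162). For 207785_s_at the changes were -0.64, -0.72 and -0.43 in mir-429 cells and -0.97, -0.73 and -0.39 in control cells, the last not called (adjusted p = 0.217). The 24 h call in control cells was lost without untransfected replicate 3 (-0.38 ± 0.15, adjusted p = 0.0627) or control replicate 2 (-0.27 ± 0.12, adjusted p = 0.0892), and the 144 h call in mir-429 cells without mir-429 replicate 2 (-0.46 ± 0.14, adjusted p = 0.0541). The suffix of 211974_x_at marks probes that may match other transcripts, and RBPJ has processed pseudogenes.

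HES1 changed direction between 48 and 144 h. Its set 203395_s_at read 8.03, 7.77 and 7.86 in mir-429 cells at 24 h, against 6.93, 7.30 and 6.89 in control cells. At 48 h it read 8.92, 8.85 and 8.67 in mir-429 cells, against 8.05, 8.05 and 8.09 in control cells. At 144 h it read 7.30, 7.09 and 7.32 in mir-429 cells, against 7.70, 7.98 and 7.76 in control cells. The groups did not overlap at any of the 3 times, with mir-429 arrays above control arrays at 24 and 48 h and below them at 144 h. The change was 0.85 ± 0.12 at 24 h (adjusted p = 6.99e-05), 1.80-fold higher, 0.75 ± 0.12 at 48 h (adjusted p = 2.04e-04), 1.68-fold higher, and -0.58 ± 0.12 at 144 h (adjusted p = 0.00721). The 144 h effect minus the 48 h effect was -1.33 ± 0.17 (adjusted p = 7.02e-05). Members whose effect changed between 48 and 144 h numbered 4 of 10 (DNER, NOTCH3 and MAML2 upward, HES1 downward), where 9.47% of all genes did, and leaving out single arrays ended each of these calls but that of HES1, with adjusted p of up to 0.0813 for DNER, 0.0987 for NOTCH3 and 0.121 for MAML2. Without control replicate 2 the 144 h change of HES1 was -0.50 ± 0.13 and was not called (adjusted p = 0.0550).

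At 48 h HES1 was higher in both arms than in untransfected cells, which read 7.49, 7.27 and 7.28, by 1.47 ± 0.12 in mir-429 cells (adjusted p = 2.39e-08) and by 0.72 ± 0.12 in control cells (adjusted p = 7.55e-05). At 24 h it was higher by 0.54 ± 0.12 in mir-429 cells (adjusted p = 0.00294) and changed by -0.30 ± 0.12 in control cells (adjusted p = 0.0537), or by -0.43 ± 0.12 without control replicate 2 (adjusted p = 0.00690). At 144 h the changes were -0.11 ± 0.12 in mir-429 cells and 0.47 ± 0.12 in control cells, neither called (adjusted p = 0.557 and 0.0866).

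A second HES1 set did not show the rise at 24 h. The set 203394_s_at read 6.20, 5.72 and 5.99 in mir-429 cells at 24 h, against 6.45, 4.88 and 7.32 in control cells, and the control arrays covered the whole range of the mir-429 arrays. Its change was -0.25 ± 0.40 at 24 h (adjusted p = 0.719), 0.98 ± 0.40 at 48 h (adjusted p = 0.109) and -0.57 ± 0.40 at 144 h (adjusted p = 0.520). At 48 h it read 9.30, 9.85 and 9.61 in mir-429 cells, against 8.82, 8.38 and 8.61 in control cells, with no overlap. Against untransfected cells this set rose at 48 h by 4.37 ± 0.40 in mir-429 cells and by 3.39 ± 0.40 in control cells, at the time when the 3 prime minus 5 prime difference of the control probe sets was widest, and the part of that difference in this rise was not tested. The third set, 203393_at, stayed between 1.55 and 3.82, under the filter. With the mean of its probe sets HES1 changed by 0.15 ± 0.16 at 24 h, 0.21 ± 0.16 at 48 h and -0.33 ± 0.16 at 144 h (adjusted p = 0.548, 0.395 and 0.274), so the calls belong to 203395_s_at.

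The promoter of HES1 is a textbook binding place of RBPJ, and the RefSeq promoter windows of GRCh38.p14, 250 bases before to 50 after each start, are shown for HES1 and for the RBPJ start whose window holds the same letters. Capitals in the HES1 window mark GTGGGAA, the core letters bound by RBPJ. In the RBPJ window they mark GTGGGAA, its reverse complement TTCCCAC, and CACCTG, the reverse complement of the ZEB E-box CAGGTG.
HES1 (chr3:194135898-194136197, plus strand): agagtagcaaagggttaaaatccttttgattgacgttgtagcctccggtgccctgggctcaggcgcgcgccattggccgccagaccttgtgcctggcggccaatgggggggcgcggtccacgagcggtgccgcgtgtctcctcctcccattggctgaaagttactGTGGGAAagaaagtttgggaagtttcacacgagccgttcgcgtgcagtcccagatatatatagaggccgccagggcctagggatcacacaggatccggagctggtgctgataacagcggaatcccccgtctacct
RBPJ (chr4:26319496-26319795, plus strand): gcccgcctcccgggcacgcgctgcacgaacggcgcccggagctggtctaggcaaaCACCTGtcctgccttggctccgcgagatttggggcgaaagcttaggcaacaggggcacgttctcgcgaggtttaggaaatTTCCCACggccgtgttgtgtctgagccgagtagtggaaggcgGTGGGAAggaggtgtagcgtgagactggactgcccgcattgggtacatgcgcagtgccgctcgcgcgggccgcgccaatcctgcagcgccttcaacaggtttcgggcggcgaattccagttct
The HES1 match starts 85 bases before the start, at -85, and the RBPJ matches at -115, -73 and, for CACCTG, -195. Searched on both strands, GTGGGAA was found in 6.25% of 35116 promoter windows and CAGGTG in 20.6%. Of the members, 9 have an entry in the table, all but DNER. JAG2 also holds CAGGTG, at -36, and no other window of a member holds either motif. A match describes letters in a window and no binding was measured.

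In control cells against untransfected cells, 4 members were called at 24 h (DNER higher and NOTCH2, MAML3 and RBPJ lower), close to the 38.0% of all genes called. At 48 h 6 were called, 4 higher (DNER, NOTCH2, MAML2 and HES1) and 2 lower (JAG1 and RBPJ), close to the 54.5% of all genes. At 144 h limma called 0 of 10, where 0.474% of all genes were called. An unadjusted p under 0.05 was found for 3 of the 10 and for 1846 of all 12879 tested genes. For mir-429 cells against untransfected cells, 4 members were called at 24 h (JAG1 and HES1 higher, MAML3 and RBPJ lower), where 23.0% of all genes were. At 48 h 5 were called (MAML2 and HES1 higher, DNER, NOTCH1 and RBPJ lower), where 56.7% of all genes were. At 144 h 2 were called (DNER and RBPJ lower), where 18.9% of all genes were. JAG2 and NOTCH3 were called against untransfected cells in neither arm at any time. These comparisons share the untransfected arrays. Relative to untransfected cells the median 48 h change over all genes was -0.18 with mir-429 and -0.16 with control, and after cyclic loess scaling it was -0.07 and -0.06 in the same order, a shift of all genes whose size depends on the scaling. With the 3 prime minus 5 prime signal as a covariate, none of the 48 h differences of members from untransfected cells was called, in either arm. The SEs were wider in that fit: that of HES1 was 0.55 in mir-429 cells, in place of 0.12, beside a change of 1.08 (adjusted p = 0.331), and in control cells HES1 differed by 0.38 ± 0.48. DNER then differed from untransfected cells by -0.93 ± 0.70 in mir-429 cells and 1.17 ± 0.61 in control cells, and RBPJ by -0.86 ± 0.59 and -0.69 ± 0.52 in these arms, close to the values without the covariate. Others moved further: MAML2 differed by 1.07 ± 0.55 and 1.38 ± 0.48 in these arms, in place of 0.55 and 0.94. JAG2 differed by 1.25 ± 1.04 in mir-429 cells, in place of -0.01. The signal ran from 7.23 to 8.73 at 48 h and from 2.79 to 3.76 in untransfected cells. The fit can thus separate it from the group only through the spread inside groups.

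A wider list of 69 Notch pathway genes held 64 with a probe set, of which 50 were tested. The ligands DLL1, DLL3 and DLL4 and the targets HES4, HES5, HES7 and HEY2 were among 14 genes under the filter. At 24 h, 13 of the 50 rose and 3 fell in mir-429 cells relative to control cells, with a median change of 0.07, at 48 h 6 rose and 7 fell (median -0.03), and at 144 h 0 rose and 4 fell (median -0.04). That is 32.0%, 26.0% and 8% called, against 26.6%, 20.6% and 5.85% of all genes. Against untransfected cells at 24 h, 6 of the 50 were higher and 15 lower in control cells (median -0.14). That is 42% called, where 38.0% of all genes were. In mir-429 cells 5 were higher and 3 lower (median -0.02), 16% called where 23.0% of all genes were.

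**Figure D4:**
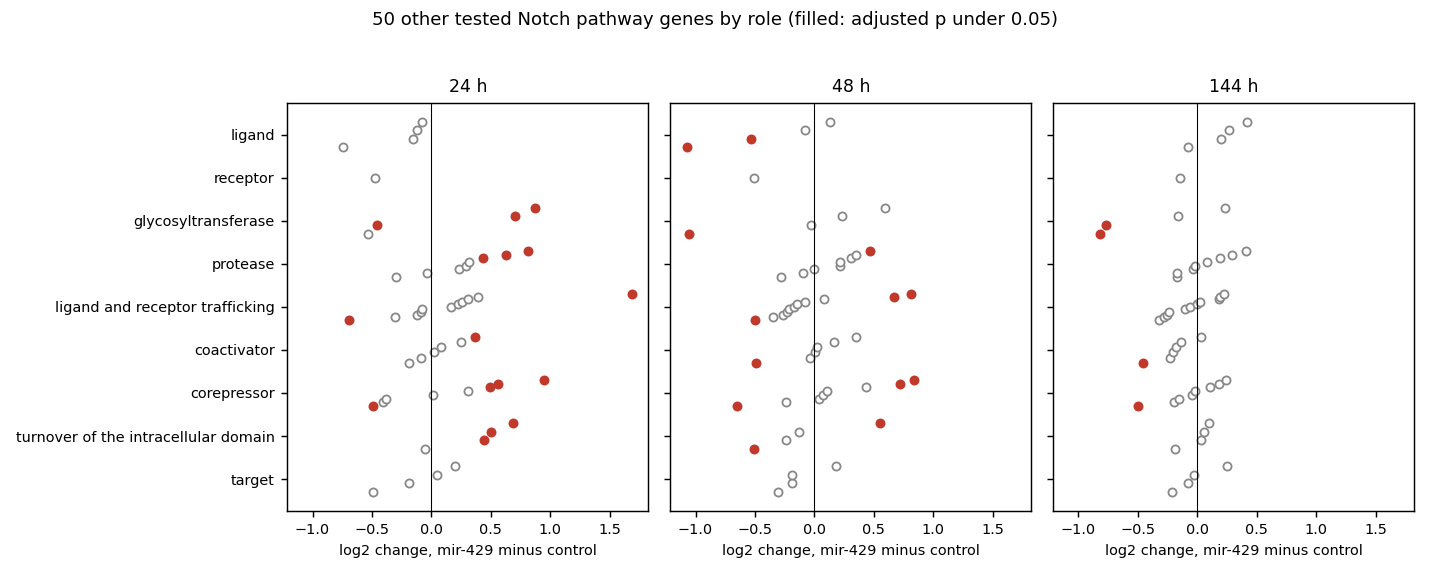
Log2 change in mir-429 cells relative to control cells (horizontal axis) of the 50 other tested Notch pathway genes at 24, 48 and 144 h, in rows by role and, inside a row, ordered by size; filled points have an adjusted p under 0.05. At 24 h 13 points are filled to the right and 3 to the left, and at 144 h 4 to the left.

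DTX3L, a Deltex-type ubiquitin ligase, led at 24 h, at 10.09 ± 0.04 in mir-429 cells and 8.40 ± 0.16 in control cells (SD, n = 3). That is a change of 1.69 ± 0.12 relative to control cells (adjusted p = 4.09e-08), and the rises of single genes below are also relative to control cells. DTX3L was still higher at 48 h, by 0.82 ± 0.12. TLE4, a Groucho-type corepressor, rose by 0.94 ± 0.16 and 0.72 ± 0.16 at these times, CCNC, the cyclin partner of the kinase that marks the intracellular domain for destruction, by 0.69 ± 0.10 and 0.55 ± 0.10, and the corepressor subunit HDAC1 by 0.56 ± 0.10 and 0.83 ± 0.10. ADAM10, which makes the first ligand-induced cleavage of the receptor, rose by 0.63 ± 0.12 at 24 h. ITCH, a ubiquitin ligase of Notch, rose by 0.67 ± 0.09 at 48 h. Against untransfected cells at 24 h, 0 of 8 corepressors were called in mir-429 cells (-0.15 to 0.15). In control cells 1 was higher and 4 were lower. Of 8 proteases, 0 were called in mir-429 cells (highest 0.33) and 4 were lower in control cells. Of 11 trafficking genes such as DTX3L, 2 were higher (highest 0.63) and 2 lower in mir-429 cells. In control cells 2 of these were higher and 4 lower (lowest -1.58). Of 4 turnover genes such as CCNC, 1 was higher in mir-429 cells and 1 was lower in control cells. Of all genes, 23.0% were called with mir-429 and 38.0% with control.

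LFNG, a glycosyltransferase that changes which ligands a receptor answers, fell at each time. It stood at 6.13 ± 0.23, 4.54 ± 0.11 and 5.60 ± 0.16 in mir-429 cells at 24, 48 and 144 h, against 6.59 ± 0.13, 5.60 ± 0.13 and 6.42 ± 0.07 in control cells (SD, n = 3). Its changes were -0.46 ± 0.12, -1.06 ± 0.12 and -0.82 ± 0.12 (adjusted p = 0.00859, 4.41e-06 and 4.55e-04). POGLUT1, which adds glucose to the receptor, rose by 0.87 ± 0.16 at 24 h and fell at 144 h, with a change of -0.76 ± 0.16 (adjusted p = 0.00817). The coactivator CREBBP and the corepressor SPEN also fell at 144 h, with changes of -0.46 ± 0.12 and -0.50 ± 0.13. Of the 4 other targets tested (HES2, HES6, HEY1 and HEYL), limma called 0 at each of the 3 times. Of these, 1, HES6 at 24 h, had an unadjusted p under 0.05, with a change of -0.49 ± 0.20. At that time 4889 of all 12879 tested genes had such a p.

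Over the 7 group means, the tested genes most like each called member were found by Pearson correlation among 12861 genes with an official symbol, as a description with n = 7 groups that share their arrays. DNER was most like MYPN (0.99), EPM2A (0.98) and EPDR1 (0.98), which changed by -1.18, -0.66 and -0.74 at 48 h in mir-429 cells relative to control cells. JAG1 was most like SLC37A3 (0.97), ERMP1 (0.97) and C11orf71 (0.96). HES1 was most like NAA25 (0.99), C15orf40 (0.98) and SLBP (0.97). NOTCH2 was most like RASSF3, GSAP and ANTXR1 (0.98 to 0.99), NOTCH1 most like HOXD4, USP48 and AMOTL1 (0.99 each), and MAML2 most like INHBC, CXXC5 and PRKRA (0.98 to 0.99).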

How the data were processed

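Gene expression was measured on 21 HG-U133 Plus 2.0 arrays, with groups taken from the labels. Per the labels' protocols, total RNA was column-extracted, and cDNA was amplified from the 3 prime end and biotin labelled. The authors deposited one log2 value for each probe set and array. Their processing notes name RMA, with no version given in the sources used here. No further scaling was applied. GEO's platform annotation gave 1 symbol to 41097 of 54675 probe sets and several to 1801, which were not named. A RefSeq table of GRCh38.p14 gave current symbols by Entrez identifier for 99.9% of them. A gene was represented by its probe set with the highest mean, and 12879 of 19775 genes passed the filter.

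The fits (lmFit, then eBayes, limma 3.58.1, R 4.3.3) had a mean for each of 7 groups, 14 residual and 3.93 prior degrees of freedom, two-sided, with Benjamini-Hochberg adjustment. The SE pools the spread of a gene over all groups, while the root mean square difference between arrays of 1 group ran between 0.40 and 0.47 for control cells at 48 h and between 0.17 and 0.26 for untransfected cells. No 2 arrays were identical. The number of arrays limits the precision, since arrays give no read depth. The scripts were tested on simulated data. The members, the wider list and the tests were chosen with earlier results of these data known, and the comparisons of mir-429 with untransfected cells were added after seeing the data. Named were all members and their probe sets, up to 6 called genes of the wider list per time by smallest p, ZEB1 and ZEB2, and the 3 genes most like each called member. Alternatives were quantile and cyclic loess scaling, other filters, other rules for the probe set, other fits, a covariate, array weights, a replicate block and leaving out each array.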

Additional observations from a re-analysis of the deposited data

Results flagged for a closer look

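The effect of mir-429 relative to control differed between times for 5 members by the test of the difference itself, with limma over all 21 arrays. For HES1 the 144 h effect minus the 48 h effect was -1.33 ± 0.17 (adjusted p = 7.02e-05), with mir-429 arrays above all control arrays at 48 h and below them at 144 h. DNER was below control at both times, and its difference was 0.75 ± 0.21 (adjusted p = 0.0314). That of NOTCH3, a probe set near the array medians, was 1.00 ± 0.29 (adjusted p = 0.0373). MAML2 had a difference of 0.56 ± 0.17 (adjusted p = 0.0480). For NOTCH2 the 48 h effect minus the 24 h effect was -0.45 ± 0.13 (adjusted p = 0.0454). The HES1 call was kept without each of the 12 arrays in turn. It was lost with the mean of the gene's probe sets (-0.54 ± 0.22, adjusted p = 0.155). It was also lost with the probe set of largest SD (-1.56 ± 0.57, adjusted p = 0.117), so the HES1 call depends on the probe set rule. The DNER call was lost without any 1 of 8 arrays (adjusted p = 0.0557 to 0.0813), all but control replicates 1 and 3 and mir-429 replicate 1 at 48 h and mir-429 replicate 1 at 144 h. That of NOTCH3 was lost without any 1 of 8 (adjusted p = 0.0642 to 0.0987), all but control replicate 2 and mir-429 replicates 1 and 3 at 48 h and mir-429 replicate 3 at 144 h. That of MAML2 was lost without any 1 of 9 (adjusted p = 0.0560 to 0.121), all but control replicate 2 and mir-429 replicate 3 at 48 h and mir-429 replicate 3 at 144 h. That of NOTCH2 was lost without any 1 of 10 (adjusted p = 0.0502 to 0.128), all but control replicate 2 at 24 h and control replicate 3 at 48 h.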

How the results depend on the processing

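The calls of DNER between arms, at each time and averaged, were kept in all 78 combinations of comparison and setting, with adjusted p of at most 0.00227. DNER has 1 probe set, so the settings that change the probe set rule left its values as they were. The averaged comparison reuses the arrays of the single times. HES1 at 24 h reversed to -0.25 with the probe set of largest SD. Counts of members called moved as follows, and causes were not tested. At 24 h (4 called) the count was 1 with the mean of a gene's probe sets, 1 with the largest-SD probe set, 2 with the covariate and 7 with array weights. At 48 h (4 called) it was 2 with no filter, with the probe set mean, with only the compared groups and with the covariate, and 1 with the largest-SD set. At 144 h (2 called) it was 1 with the mean and 1 with the largest-SD set. Averaged over times (3 called) it was 1 with the largest-SD set and 5 with array weights. For the change between 24 and 48 h (1 called) it was 0 with cyclic loess, no filter, the mean, the largest-SD set, only the compared groups, the covariate and array weights. For the change between 48 and 144 h (4 called) it was 1 with no filter, only the compared groups or the covariate, 2 with the mean or array weights, and 0 with the largest-SD set. For control against untransfected cells at 24 h (4 called) it was 2 with the largest-SD set and 8 with array weights, at 48 h (6 called) 3 with the largest-SD set and 0 with the covariate, and at 144 h (0 called) 2 with only the compared groups and 3 with array weights. Leaving out single arrays gave 3 to 5, 2 to 4 and 1 to 3 members called at 24, 48 and 144 h, 3 to 4 averaged, 0 to 2 and 1 to 4 for the changes between times, and 3 to 4, 5 to 7 and, at 144 h, always 0 for control against untransfected cells.

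Deviations of arrays with the same replicate number had correlations of -0.13 to 0.28 between arms, and those at 24 h were all positive (0.28, 0.09 and 0.18). With 3 arrays a group these values cannot decide whether the numbers pair the arrays. With the number as a replicate block the change between 24 and 48 h had 0 members called in place of 1, and NOTCH1 at 48 h (adjusted p = 0.0642) and the change of MAML2 between 48 and 144 h (adjusted p = 0.0673) were not called.

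All-gene counts moved by over 1.5 times in places: at 24 h 3425 against 614 with the covariate, 2231 with the largest-SD set and 6205 with array weights, at 48 h 2649 against 916 with only the compared groups and 1681 with weights, and at 144 h 754 against 1160 without the 48 h arrays and 2437 with weights. The changes between times had 630 against 2 to 1110 (24 and 48 h) and 1219 against 792 with the covariate. Control against untransfected cells had 4897 against 2118 with the covariate and 8257 with weights at 24 h, 7022 against 76 with the covariate at 48 h, and 61 against 18 to 4006 at 144 h. For mir-429 against untransfected cells they were 2966 against 6179 with weights at 24 h, 7296 against 72 with the covariate at 48 h, and 2434 against 1586 with the largest-SD set and 5185 with weights at 144 h. Leaving out single arrays took the count between arms to 2148 at 24 h (control replicate 3) and 326 at 144 h (control replicate 2), and that of the change between 24 and 48 h to 165 (mir-429 replicate 1 at 24 h) or 1973 (control replicate 2 at 24 h). Of genes called at 144 h, 25.3% were higher in mir-429 cells, 37.0% with quantile scaling and 43.8% with cyclic loess. The share was 40.6% and 51.5% with cyclic loess for the change between 48 and 144 h. For mir-429 against untransfected cells at 144 h it was 35.0%, 48.5% and 49.8%. Array intensity limits NOTCH3 and JAG2, which lie near the array medians.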
